A study of Mus musculus with 6 samples.

Results

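Receptors and adaptors with which neutrophils sense microbes were examined in miR-223 null and wild-type mouse neutrophils. The set holds 8 probe sets for 7 genes, chosen by probe set identifier from a table of 45101 probe sets. They cover the Toll-like receptor genes Tlr2 (1419132_AT) and Tlr4 (1418162_AT and 1418163_AT), the co-receptor gene Cd14 (1417268_AT) and the adaptor gene Myd88 (1419272_AT). The C-type lectin receptor genes are Clec4d (1420804_S_AT), Clec4e (1420330_AT) and Clec7a (1420699_AT). The gene names came with the list of identifiers and were not checked against an annotation of the array here. All 8 probe sets passed the filter on low signal.

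Messenger RNA was profiled on 6 Affymetrix arrays, 3 per genotype. The cells of both groups were grown from bone marrow progenitors in an isotope-labelling medium (SILAC-IMDM). They had G-CSF, the growth factor of granulocytes, and SCF, the stem cell factor, for 6 days, and spent a further 42 hours without SCF. Live cells were then isolated with magnetic beads (MACS). The wild-type group therefore shared these growth factors and times with the null group and differed from it in genotype. Which isotopes each group received was not examined here. Mouse strain, age, the design of the null allele and the number of animals are not given in the sources used here, and nothing states that replicates were separate animals or cultures, so each p-value reflects the spread over these arrays alone, and that spread may be technical.

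Toll-like receptors bind conserved microbial molecules and signal through adaptor proteins to NF-kB. TLR2 recognises bacterial lipoproteins and TLR4 recognises lipopolysaccharide, which CD14 hands to it, and MyD88 is the adaptor that both receptors use. The C-type lectin receptors of this set signal through the kinase SYK and the adaptor CARD9. Dectin-1, encoded by Clec7a, binds fungal beta-glucan, while Mincle (Clec4e) and MCL (Clec4d) bind mycobacterial and fungal glycolipids and are expressed together on the cell surface. MicroRNAs such as miR-223, which is abundant in neutrophils, repress mRNAs that pair with their seed, here bases 2 to 8.

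The molecule missing from the null cells is shown first, because the comparison is defined by its loss. The gene Mir223 lies at chrX:96242817-96242926 on the plus strand of GRCm38.p6, and its mature strands are given from RefSeq, 5′ to 3′, with the seed in capitals. The level of miR-223 itself was not analysed here.
mmu-miR-223-3p: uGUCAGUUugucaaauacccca
mmu-miR-223-5p: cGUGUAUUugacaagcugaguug

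RefSeq promoter windows of GRCm38.p6 were matched by symbol for 5 of the 7 genes: Tlr2, Myd88, Clec4d, Clec4e and Clec7a. The 250 bases before the start site were searched on both strands for the core of ETS family factors such as PU.1, GAGGAA, and for the kappaB consensus. The sequences printed are those of Clec7a, the gene with the largest difference between genotypes, and of Tlr2 and Clec4e, whose courses over the arrays were among the closest for different genes of the set. Capitals mark the ETS core in the Clec genes and the kappaB matches in Tlr2.
Clec7a, chr6:129472786-129473035, minus strand: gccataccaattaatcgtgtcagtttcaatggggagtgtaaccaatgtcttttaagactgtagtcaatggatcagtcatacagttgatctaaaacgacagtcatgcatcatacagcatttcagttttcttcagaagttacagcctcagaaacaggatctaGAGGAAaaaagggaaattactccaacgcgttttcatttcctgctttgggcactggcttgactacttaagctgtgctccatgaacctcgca
Clec4e, chr6:123289872-123290121, minus strand: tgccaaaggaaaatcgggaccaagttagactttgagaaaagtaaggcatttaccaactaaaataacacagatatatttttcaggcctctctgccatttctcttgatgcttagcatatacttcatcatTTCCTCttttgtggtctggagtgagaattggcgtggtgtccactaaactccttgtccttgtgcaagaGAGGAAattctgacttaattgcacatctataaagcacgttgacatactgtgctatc
Tlr2, chr3:83841761-83841790, minus strand: aggacacctGGGGAATTCCCacacggagcc

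Clec7a held 1 ETS core, starting 90 bases before the start site of the window printed. Clec4e held 2, at 56 bases on the gene's strand and at 123 bases on the opposite strand, and Clec4d held 1, at 240 bases on the opposite strand. Tlr2 and Myd88 held none. Of all 32851 promoter windows of this length, 23.25% hold the ETS core. The kappaB consensus was found in Tlr2 alone among the 5 genes, as 3 overlapping matches that begin 173 and 172 bases before the start site, and 3.9% of all windows hold it. The Tlr2 stretch lies within the annotated span of the gene, upstream of the start site of 1 of its transcripts. These matches describe the letters in the windows and are no evidence of binding.

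Array values are log2 intensities, so a difference of 1 unit is a doubling. Array medians lay between 4.71 and 4.73, and the mean of 3 bacterial control probe sets, which have no mouse transcript, between 2.77 and 2.86. The 2 arrays numbered replicate 1 lay away from the other 4: the first principal component, with 48.7% of the variance, separated them, and the second, with 27.5%, separated the genotypes. Results are therefore given for all arrays, with a block for replicate number where it changes a call, and without both replicate 1 arrays. The last of these settings keeps the other 4 arrays, 2 per genotype, and was chosen after seeing the data. The 8 probe sets read between 8.15 and 13.03 on every array, above the bacterial controls and below the array maximum of about 14.98. A level on an array depends on the probes, so levels of different genes are not ranked. In RNA from a population, fewer cells of a type and less RNA per cell cannot be told apart. Marker genes of neutrophils, and of the monocytes and macrophages that also carry these receptors, were not analysed here, so the labelled cell type was not checked.

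None of the 8 probe sets differed between genotypes at an adjusted p under 0.05 when arrays were treated as unpaired (limma, Benjamini-Hochberg over 27022 probe sets), where 0.189% of all probe sets tested did. At an unadjusted limma p under 0.05, 1 of the 8 passed, the one for Clec4e, against 10.7% of all. With the replicate number as a block, 1 of 8 passed, against 10.0% of all probe sets tested and 19.8% of the 8039 that were at least as bright as the dimmest member. That probe set was Clec7a, which was higher in null cells, a direction and call shared by 4.96% of all probe sets tested. The share of members called after adjustment was thus close to the background in this fit. At an unadjusted limma p under 0.05 with the block, 6 of 8 passed, all but Clec4d and Myd88, against 26.2% of all. Both Tlr4 probe sets are among these 6, and the share over the brighter probe sets alone was not taken at this limit. Without both replicate 1 arrays and with no block, 3 of 8 passed, against 3.97% of all: Clec7a, higher in null cells, and Cd14 and Clec4e, lower. This setting was chosen after seeing the data and rests on fewer arrays per genotype. Its share was also taken over all probe sets tested, not the brighter ones. In 0 of the 8 did the 3 null arrays lie wholly above or below the 3 wild-type arrays. That separation was seen in 16.8% of all and in 20.8% of those at least as bright as the dimmest member.

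**Figure D1:**
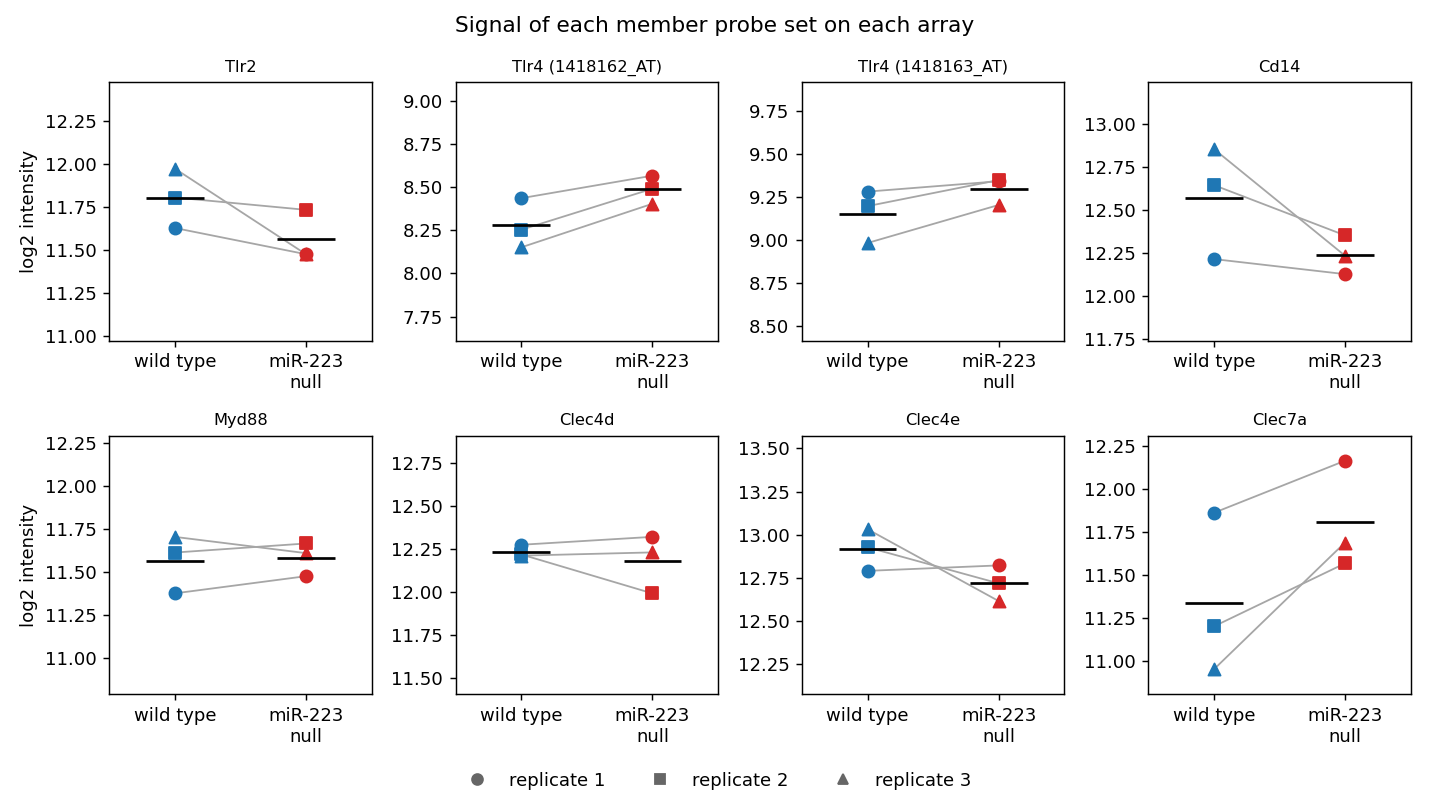
Log2 intensity (vertical axis, the same span of 1.5 units in each panel) of the 8 probe sets in wild-type (blue) and miR-223 null (red) neutrophils. Symbols are single arrays, grey lines join arrays of the same replicate number and black bars are means of 3 arrays; every panel shows some overlap between genotypes, and the 3 lines for Clec7a all rise.

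Clec7a, the beta-glucan receptor gene at chr6:129461591-129472785, showed the largest difference of the set. Its level was 12.16, 11.57 and 11.69 on null arrays 1, 2 and 3 and 11.86, 11.20 and 10.95 on wild-type arrays 1, 2 and 3. Replicate 1 was the highest array of each genotype, and wild-type 1 lay above null 2 and null 3, so the groups overlapped. Within each replicate number the null array was higher, by 0.30, 0.37 and 0.74 log2 units.

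Clec7a had a mean of 11.81 ± 0.32 on the null arrays and of 11.34 ± 0.47 on the wild-type arrays (SD, n = 3 for each), a 1.38-fold higher signal in null cells. The log2 difference of 0.47 did not pass without the block (SE 0.25, 95% interval -0.10 to 1.04, limma adjusted p = 0.565) and passed with it (SE 0.079, 95% interval 0.28 to 0.65, limma adjusted p = 0.0141). In size, the difference of Clec7a was at least that of 96.5% of all probe sets tested. Without both replicate 1 arrays the difference was 0.55 and passed with no block (limma adjusted p = 0.0184), and without wild-type 3 it was 0.28 and did not pass (limma adjusted p = 0.897). The blocked call was lost when variance was modelled without an intensity trend (limma adjusted p = 0.0940), a setting under which 0.707% of all probe sets passed with the block.

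The neighbouring pair of lectin receptor genes had means that were lower or nearly level in null cells. Clec4d (chr6:123262107-123275268) and Clec4e (chr6:123281789-123289871) lie 6.5 kb apart, and Clec7a lies 6.17 Mb further along the same chromosome. Clec4e, which encodes Mincle, read 12.82, 12.72 and 12.61 on null arrays 1 to 3 and 12.79, 12.93 and 13.03 on wild-type arrays 1 to 3. The null array was lower in replicates 2 and 3, by 0.21 and 0.42 log2 units, and 0.032 higher in replicate 1, where wild-type 1 fell below null 1.

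The null arrays averaged 12.72 ± 0.10 for Clec4e and the wild-type arrays 12.92 ± 0.12 (SD, n = 3 for each), so that the null signal was 87.2% of the wild-type signal. The difference was -0.20 log2 units (SE 0.080, 95% interval -0.39 to -0.011) and did not pass after adjustment without the block (limma adjusted p = 0.445) or with it (95% interval -0.37 to -0.027, limma adjusted p = 0.136). With both replicate 1 arrays left out it was -0.31 and passed (limma adjusted p = 0.0262), while with the block and no replicate 3 pair it was -0.089 (limma adjusted p = 0.398).

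Clec4d, which encodes MCL, had means that were nearly level between genotypes. It read 12.32, 11.99 and 12.23 on null arrays 1 to 3, and 12.27, 12.22 and 12.21 on wild-type arrays 1 to 3. The wild-type arrays were close together, and the null arrays reached both above and below them, with null 2 the lowest of all. The difference was -0.054 log2 units (SE 0.089, 95% interval -0.26 to 0.15, limma adjusted p = 0.896), and it turned to 0.041 without null 2. Without both replicate 1 arrays it was -0.10 and did not pass (limma adjusted p = 0.498). An interval of this width leaves room for a fall to 83.4% or a rise of 1.11-fold. The name of this probe set ends in S_AT, by which the manufacturer marks probes that can match transcripts of more than 1 gene.

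Among the Toll-like receptors, Tlr2 was lower in null cells within each replicate number. Tlr2 (chr3:83836272-83841824) read 11.48, 11.73 and 11.47 on null arrays 1 to 3 and 11.63, 11.80 and 11.97 on wild-type arrays 1 to 3. Null 2 lay above wild-type 1, which is the only overlap between the groups. The pairs differed by -0.15, -0.072 and -0.50 log2 units, so the third pair was far from the other two.

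For Tlr2 the null mean was 11.56 ± 0.15 and the wild-type mean 11.80 ± 0.17 (SD, n = 3 for each), with the null signal at 84.7% of wild type. After adjustment, the log2 difference of -0.24 passed neither without the block (SE 0.11, 95% interval -0.50 to 0.020, limma adjusted p = 0.503) nor with it (SE 0.076, 95% interval -0.42 to -0.063, limma adjusted p = 0.0920). Without both replicate 1 arrays it was -0.28, which did not pass either (limma adjusted p = 0.136), and without wild-type 3 it was -0.16.

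Tlr4 (chr4:66827551-66846581), the lipopolysaccharide receptor gene, was higher in null cells at each of its 2 probe sets in 3 of 3 pairs, by small amounts. Probe set 1418162_AT read 8.57, 8.49 and 8.40 on null arrays 1 to 3 and 8.44, 8.25 and 8.15 on wild-type arrays 1 to 3. Probe set 1418163_AT read 9.34, 9.35 and 9.20 on null arrays 1 to 3, against 9.28, 9.20 and 8.98 on wild-type arrays 1 to 3. At each of them wild-type 1 was the highest wild-type array and exceeded null 3, so the groups overlapped.

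For 1418162_AT of Tlr4 the log2 difference was 0.21 (SE 0.11, 95% interval -0.059 to 0.47), or 1.15-fold, and for 1418163_AT it was 0.14 (SE 0.11, 95% interval -0.12 to 0.40), or 1.11-fold. Neither passed after adjustment without the block (limma adjusted p = 0.586 and 0.723) or with it (95% intervals 0.057 to 0.36 and 0.0086 to 0.28, limma adjusted p = 0.0875 and 0.167). Without both replicate 1 arrays the differences were 0.25 and 0.19 and did not pass either (limma adjusted p = 0.187 and 0.340), and without wild-type 3 that of 1418163_AT was 0.059. Averaged within each array, the Tlr4 probe sets gave a null mean of 8.89 ± 0.079 and a wild-type mean of 8.72 ± 0.15 (SD, n = 3 for each; exact permutation, two-sided, p = 0.2 unpaired and 0.25 paired). The smallest p these designs allow is 0.1 unpaired and 0.25 paired. The difference between the Tlr4 probe sets within an array was 0.81 ± 0.042 for null and 0.87 ± 0.061 for wild type (SD, n = 3 for each; exact permutation, two-sided, p = 0.3 unpaired). After Benjamini-Hochberg adjustment over these 2 quantities the exact unpaired p was 0.3 for each.

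Cd14, the co-receptor gene whose product presents lipopolysaccharide to TLR4, had a lower mean in null cells, which passed only in some of the fits. It read 12.13, 12.35 and 12.24 on null arrays 1 to 3 and 12.22, 12.65 and 12.86 on wild-type arrays 1 to 3. The null arrays were close together, while wild-type 1 lay below null 2 and null 3 and far below the other wild-type arrays. The null array was lower in each pair, by 0.087, 0.29 and 0.62 log2 units.

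Mean Cd14 was 12.24 ± 0.11 on the null and 12.57 ± 0.33 on the wild-type arrays (SD, n = 3 for each), which puts the null signal at 79.4% of wild type. The log2 difference of -0.33 (SE 0.15, 95% interval -0.69 to 0.025) did not pass without the block (limma adjusted p = 0.499), and with the block it lay just outside the threshold (SE 0.086, 95% interval -0.53 to -0.13, limma adjusted p = 0.0520). Left without both replicate 1 arrays, it was -0.46 and passed (limma adjusted p = 0.0198), while without wild-type 3 it was -0.19 (limma adjusted p = 0.869). In size, it was at least that of 90.6% of all probe sets tested.

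Myd88 (chr9:119335934-119340018), the adaptor downstream of TLR2 and TLR4, had the smallest difference of the set. It read 11.47, 11.66 and 11.61 on null arrays 1 to 3 and 11.37, 11.61 and 11.70 on wild-type arrays 1 to 3. The replicate 1 array was the lowest of each genotype and all null arrays lay within the range of the wild-type arrays. The difference was 0.019 log2 units (SE 0.10, 95% interval -0.22 to 0.25, limma adjusted p = 0.976), and it was -0.021 without both replicate 1 arrays. Its interval without the block spans 0.861-fold to 1.19-fold, so changes larger than that lie outside it. With the block the interval spans 0.939-fold to 1.09-fold (limma adjusted p = 0.851).

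**Figure D2:**
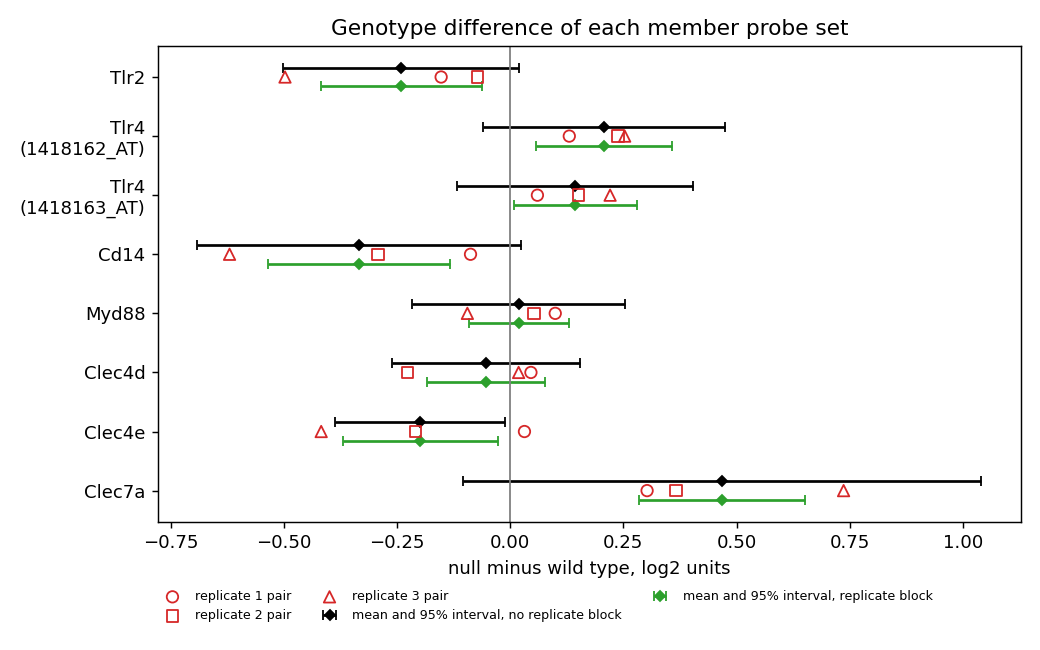
Null minus wild-type difference in log2 units for each probe set: diamonds with bars are limma means with 95% intervals, black without and green with the replicate number as a block, and open red symbols are the 3 replicate pairs. Clec7a is the only one with all 3 pairs beyond 0.25 on one side of 0. The replicate 1 pair is nearest to 0 for Clec7a, Cd14, Clec4e and both probe sets of Tlr4.

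Read over the set, differences ran in both directions. Of the 8 probe sets 4 had a higher and 4 a lower mean in null cells, with a median difference of -0.017 log2 units, against -0.011 over all probe sets tested, of which 12825 were higher and 14197 lower. The median size of the difference was 0.20 among the members and 0.11 over all. Sizes, and the ranks in size of Clec7a and Cd14, were not set against the brighter probe sets alone. Higher in 3 of 3 pairs were Clec7a and the 2 probe sets of Tlr4, as were 21.6% of all probe sets tested. Lower in 3 of 3 pairs were Tlr2 and Cd14, as were 25.0% of all. A single direction in 3 pairs was thus held by 5 of 8, where 46.6% of all held one. The 2 probe sets of Tlr4 measure 1 gene and count as 1 observation of it.

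**Figure D3:**
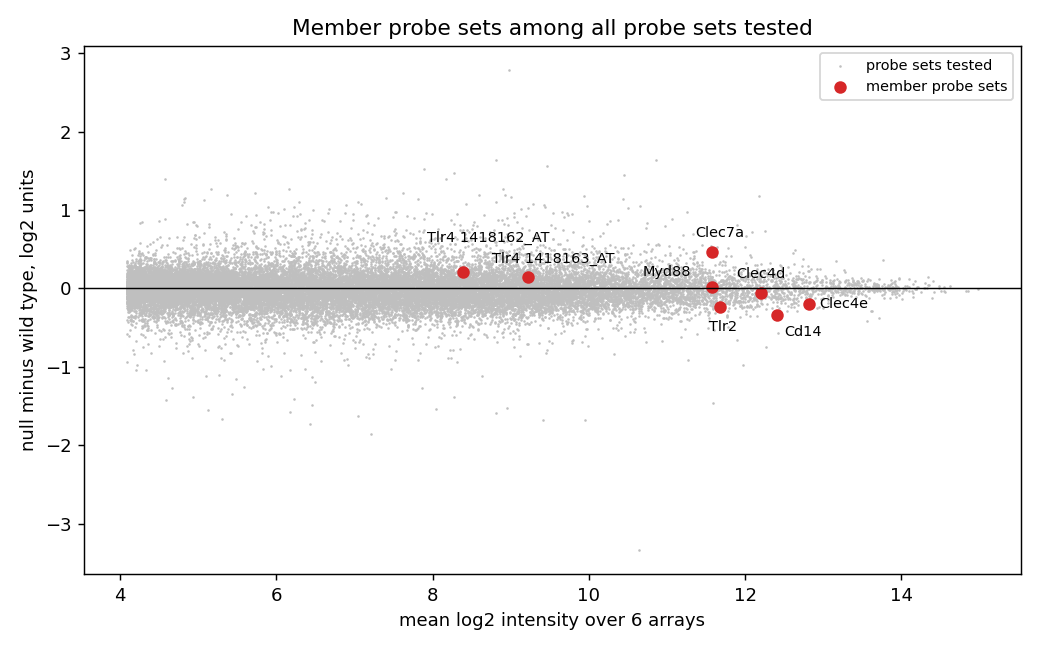
Mean log2 intensity over 6 arrays (horizontal axis) and null minus wild-type difference in log2 units without the block (vertical axis) for the 27022 probe sets tested (grey) and the 8 members (red). The members lie in the upper range of signal, and Clec7a at 0.47 and Cd14 at -0.33 are the farthest of them from 0.

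The members also differed in how much of their variation followed the replicate number. For Myd88, 85.9% of the sum of squares over the 6 arrays went with the replicate number and 0.726% with genotype. For Clec7a these shares were 60.4% and 34.0%, which left 5.67% to neither, and for Tlr4 probe set 1418162_AT they were 42.4% and 53.9%, with 3.73% left. Clec4e stood at the other end, with 0.350% on the replicate number, 53.7% on genotype and 45.9% left over. Over all probe sets tested the median share was 53.3% for replicate number and 16.4% for genotype. The replicate number has 3 levels and genotype 2, so the former takes more of pure noise.

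**Figure D4:**
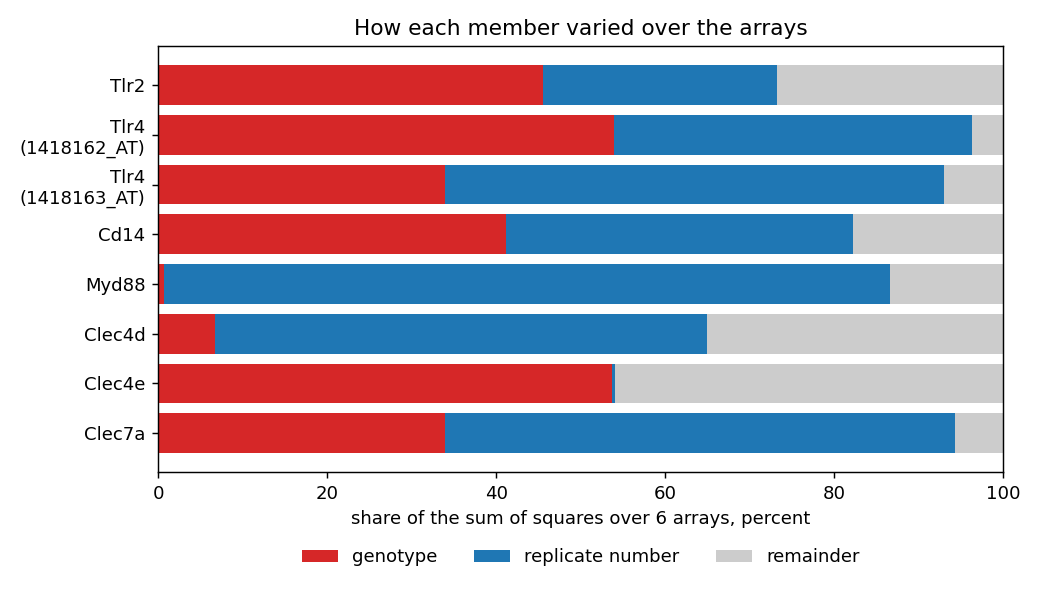
Share in percent of each probe set's sum of squares over the 6 arrays that went with genotype (red), with the replicate number (blue) and with neither (grey). Genotype takes 53.9% at Tlr4 probe set 1418162_AT and 53.7% at Clec4e, and under 7% at Clec4d and Myd88.

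Likeness of course over the arrays was measured as the root mean square difference of log2 profiles centred on their means. This measure describes 6 arrays of cells grown by the same protocol. The Tlr4 probe sets were closest to each other, at 0.053 log2 units. Tlr2 was equally near to Clec4e and to Cd14, at 0.11 log2 units each, and the most unlike pair was Cd14 and Clec7a, at 0.66. The profiles were not scaled, so this measure also depends on how widely a probe set ranged. Clec7a ranged most widely of the set, over 1.21 log2 units, against 0.73 for Cd14. Outside the set, the probe sets nearest to Clec7a were 1427075_S_AT, at 0.060, and 1433719_AT, at 0.087, among 7253 whose range over the arrays reached at least 50% of that of Clec7a. Nearest to Cd14 among 17210 such probe sets were 1448781_AT, at 0.031, and 1437763_AT, at 0.032. These are given by identifier because they were not paired with gene names here. They are shown for the genes with the largest differences of the set, and the nearest profiles of the other 5 genes are left out.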

How the data were processed

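Of the 8 probe sets, each is a row of the deposited table of log2 intensities for 6 arrays. The submitters' processing notes name GCOS, and how the authors corrected background, normalized and summarised probes is not given in the sources used here. The range of the deposited values marks them as log2 intensities, and array medians within 0.0146 of each other show that they already lay on one scale. Normalization of this kind makes every difference relative to the other probe sets of an array.

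The 64 manufacturer's controls were set aside, and of the other 45037 probe sets 27022 entered the fit, those whose mean reached the 40th percentile (4.08). Null minus wild type was fitted over all of them with limma 3.58.1 in R 4.3.3 (lmFit, eBayes with an intensity trend), two-sided, with Benjamini-Hochberg adjusted p under 0.05 as the threshold, without covariates. The code was tested on simulated data with known changes. Precision is limited by 3 arrays per genotype. Deviations from the group mean, over these probe sets, correlated between same-numbered arrays at r = 0.70, 0.30 and 0.48, which is why a fit with the number as a block is set beside the unpaired one. The reason to pair comes from the data, as the labels do not say what the number stands for. Mismatched null 3 and wild-type 2 also reached 0.41, and null 2 and wild-type 3 reached 0.21. Replicate 1 stood apart, while numbers 2 and 3 were not clearly told from each other. Statements on the pairs of replicates 2 and 3 thus rest on the number alone.

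The members and lists were chosen with earlier results of these data known. All 8 members were named, with the nearest profiles of 2 of their genes. Lists of other pathway genes and of cell type markers were not run, because probe sets other than the members were not paired with genes here. The alternatives tried were the block, the variance model, filters, normalizations and leaving out arrays or pairs.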

Additional observations from a re-analysis of the deposited data

How the results depend on the processing

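Without the block the count of members called was 0 under all alternatives run with the 6 arrays (no intensity trend, no filter, a stricter filter, median centring and quantile normalization) and 0 when any 1 array was left out. Those fits called few probe sets of any kind, 0.115% to 0.233% of all in the former and 0% to 0.215% in the latter. With the replicate number as a block 1 passed (Clec7a), against 10.0% of all probe sets tested. With the block, leaving out the replicate 1 pair gave 3 (Clec7a, Cd14 and Clec4e), against 7.57% of all. Leaving out replicate 2 or replicate 3 gave 1 each, against 2.24% and 8.58% of all. The count was 0 with the block and no intensity trend, against 0.707% of all. Settings chosen after seeing the data gave 3 with both replicate 1 arrays left out, against 3.97% of all. A block of replicate 1 against the others gave 2 (Clec7a and Cd14), against 8.94% of all. The replicate number block gave 1 after quantile normalization, against 9.48% of all. It gave 2 with no filter, against 5.45% of all, and there Cd14 joined Clec7a (limma adjusted p = 0.0435). The cause was not tested. At the filter used for the report, the block changed the call of Clec7a and of no other member. With no filter it also changed that of Cd14.

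The direction of the difference was kept in all 20 settings by the probe sets of Tlr2, Tlr4, Cd14, Clec4e and Clec7a. Many of these settings could not have turned it. With every array kept, a block, the variance model or the filter leaves the estimate itself unchanged. A block also left it unchanged after quantile normalization and without both replicate 1 arrays. The direction was thus tested only by the normalizations and by leaving out arrays or pairs. The difference ran from 0.28 to 0.73 log2 units for Clec7a, from -0.51 to -0.19 for Cd14, from -0.33 to -0.11 for Tlr2 and from -0.31 to -0.089 for Clec4e. For Tlr4 it ran from 0.14 to 0.29 at 1418162_AT and from 0.059 to 0.21 at 1418163_AT. Leaving out wild-type 3 brought the differences of all these probe sets nearer to 0, and leaving out both replicate 1 arrays took them farther from it. Clec4d turned to 0.041 without null 2 and to 0.032 with the block and no replicate 2, and ran from -0.12 to 0.041 over the fits without 1 array. Myd88 turned to -0.022 without null 2, to -0.075 without wild-type 1, and to -0.021 without replicate 1, with or without the block, and ran from -0.075 to 0.089 over the fits without 1 array. Pathway and marker lists were not run. The members read far above the bacterial controls, and the number of arrays limits their precision.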
